A study of Rattus norvegicus with 325 samples.

Results

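The genes described here form the sarcomere stress and ankyrin repeat group of skeletal muscle. They were chosen by name as Ankrd1, Ankrd2 and Ankrd23, the muscle ankyrin repeat proteins, with Csrp3, Flnc, Xirp1, Xirp2 and Nrap, proteins of the Z-disc and of the sites where thin filaments are anchored. Of the 8 genes named, 7 had a line in the count files, out of 17315 gene symbols listed, and Xirp1 was not analysed here. Each of the 7 genes stood on 1 line, passed the filter on low counts in every muscle and had reads in all 325 libraries.

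The rats were male Sprague Dawley animals, an outbred strain, with no allele or treatment other than age. Total RNA was sequenced from the diaphragm, the muscle of breathing, the soleus, a slow hindlimb muscle, and the gastrocnemius and tibialis anterior, largely fast hindlimb muscles, at 7 ages: 6, 9 and 12 months, then 18, 21 and 24 months, and last 27 months. A group of 1 muscle and 1 age held 12 libraries, with the exceptions of 11 in the 9-month diaphragm, 13 in the 21-month tibialis anterior, and 10, 12, 11, 11, 9, 9 and 11 in the gastrocnemius in order of age. By the methods of the study, libraries of 1 group came from separate animals, and all tissue of 1 age was taken on 1 day, so that age and day of collection cannot be told apart. In whole muscle, fewer cells of a type and less RNA per cell cannot be told apart either.

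Muscle ankyrin repeat proteins bind the spring region of titin in the I-band and also move to the nucleus, and their genes are known to respond to stretch, unloading and loss of nerve supply. Ankrd1 (also known as CARP) is abundant in heart and low in resting limb muscle, Ankrd2 (Arpp) is known from slow fibres, and Ankrd23 (Darp) is the third member of the family. Csrp3 encodes muscle LIM protein of the Z-disc, Flnc encodes filamin C, an actin crosslinker that is exchanged when the Z-disc is strained. Xirp2 encodes an actin-binding repeat protein that gathers with filamin C at sites of strain and repair, and Nrap encodes a scaffold of myofibril assembly and of the muscle-tendon junction.

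Values are CPM, read counts divided by library totals and scaled by the trimmed mean of M values over all libraries. Totals per library ran from 17.6 to 85.3 M counts (M, mega). Changes are log2 differences from 6 months, ± the standard error, from 1 limma-voom fit per muscle over all ages. A change was called at an adjusted p under 0.05, with Benjamini-Hochberg adjustment over all genes tested, and a size over 1.5-fold. The labelled muscles carried their fibre genes: the median of Myh7, slow myosin, was 47511 CPM in the soleus and 2204 CPM in the tibialis anterior, and that of Myh4, fast myosin, was 14.2 and 77731 CPM. Of 7 heart markers, Nppa was at 0 in 288 of 325 libraries, Nppb in 299 and Myl7 in 318, with no library above 4.00 CPM in these 3. Myh6 was at 0 in no library, with a median of 202.0 CPM in the soleus and 5.68 CPM in the tibialis anterior. Tnni3 was at 0 in 69 libraries, with medians of 1.32 CPM in the diaphragm, 0.577 in the soleus, 0.0718 in the gastrocnemius and 0 in the tibialis anterior. Tnnt2 and Myl4, also used by developing skeletal muscle, were called higher at 27 months in all 4 muscles (+0.88 to +3.93 and +2.31 to +2.51), as was Ankrd1, and Myh6 was called lower in the tibialis anterior (-1.47 ± 0.53). Their part in the changes of the 7 genes was not tested. A few libraries stood apart in the 7 genes: 1 diaphragm library of 6 months (replicate 0), 1 gastrocnemius library of 27 months (replicate 6) and 2 soleus libraries of 27 months (replicates 8 and 9). Changes within a muscle from 6 to 27 months that rest on them are given with and without them. Differences between muscles were not tested without them.

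Promoters were available for 4 of the 7 measured genes in the RefSeq table for the GRCr8 build. The 250 bases before the start are printed because these genes moved differently with age in the same muscles. The files of counts give no coordinates, so these positions belong to GRCr8 alone. Capitals mark the M-CAT motif bound by TEAD factors (CATTCC, either strand), a TATA box (TATAAA, given strand) and a match to the MEF2 motif (either strand).
Ankrd2, chr1:250796169-250796418, plus strand: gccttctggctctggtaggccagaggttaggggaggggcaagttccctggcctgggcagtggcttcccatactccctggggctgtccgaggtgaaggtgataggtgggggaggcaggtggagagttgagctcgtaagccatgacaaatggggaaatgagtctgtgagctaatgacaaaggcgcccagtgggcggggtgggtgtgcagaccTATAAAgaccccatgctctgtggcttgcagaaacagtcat
Ankrd23, chr9:46274511-46274760, minus strand: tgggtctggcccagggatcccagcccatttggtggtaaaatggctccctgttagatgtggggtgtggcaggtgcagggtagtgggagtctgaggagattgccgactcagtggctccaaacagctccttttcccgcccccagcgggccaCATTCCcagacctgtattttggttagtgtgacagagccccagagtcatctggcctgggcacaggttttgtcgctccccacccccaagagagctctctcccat
Xirp2, chr3:72533936-72534185, plus strand: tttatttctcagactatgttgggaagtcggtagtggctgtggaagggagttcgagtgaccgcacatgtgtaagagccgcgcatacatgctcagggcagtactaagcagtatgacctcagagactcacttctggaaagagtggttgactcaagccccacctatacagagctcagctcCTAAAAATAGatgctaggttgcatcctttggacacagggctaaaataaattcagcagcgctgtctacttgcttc
Flnc, chr4:58999297-58999546, plus strand: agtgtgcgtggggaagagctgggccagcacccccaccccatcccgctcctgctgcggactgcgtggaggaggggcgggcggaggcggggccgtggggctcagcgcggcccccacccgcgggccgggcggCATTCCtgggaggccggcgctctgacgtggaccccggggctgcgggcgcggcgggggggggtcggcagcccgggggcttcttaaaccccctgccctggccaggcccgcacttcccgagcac

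The Flnc stretch was 78.4% G and C and the Xirp2 stretch 48%, against a median of 51.2% over 33465 promoters of the table. An M-CAT motif lay 121 to 116 bases before the start of Flnc and 102 to 97 before that of Ankrd23, and 12.1% of all promoters held one in the same window. The TATA box of Ankrd2 began 40 bases before its start (8.06% of promoters hold these letters), and the MEF2 match of Xirp2 lay 74 to 65 bases before its start (2.96% of promoters). E-boxes (CANNTG, either strand, 65.5% of promoters) were found in Ankrd2, Ankrd23 and Xirp2 and not in Flnc, and the CArG motif of SRF (1.5% of promoters) in none of the 4. A match in letters is a description and does not show that a factor binds there.

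None of the 7 genes was called at 9 or 12 months in any muscle, when 0.108%, 0.143%, 0.123% and 0.00851% of all genes tested passed at the first of these ages (diaphragm, gastrocnemius, soleus and tibialis anterior). At the second, 0.532%, 0.885%, 0.353% and 0.196% did. At 18 months 1 gene was called in the diaphragm, gastrocnemius and soleus and 2 in the tibialis anterior, against 2.25%, 4.32%, 2.84% and 5.45% of all genes. At 21 months 1, 1, 0 and 1 genes were called (muscles ordered as before), against 1.68%, 5.81%, 2.61% and 6.47%. By 24 months they were 1, 3, 2 and 2, against 2.68%, 18.8%, 6.51% and 14.5%. At 27 months 3 genes were called in the diaphragm (1 higher, 2 lower), 3 in the gastrocnemius (all higher), 4 in the soleus (2 higher, 2 lower) and 3 in the tibialis anterior (all higher), against 7.52%, 22.8%, 15% and 27.6% of all genes. By direction the shares of all genes were 3.27% higher and 4.25% lower in the diaphragm, 15.1% and 7.76% in the gastrocnemius, 9.21% and 5.78% in the soleus, and 17.2% and 10.4% for the tibialis anterior. The median change of the 7 genes at 27 months was -0.13, 0.29, 0.15 and 0.30 in the same order, beside 0.0026, 0.042, 0.019 and 0.015 over all genes tested.

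**Figure D1:**
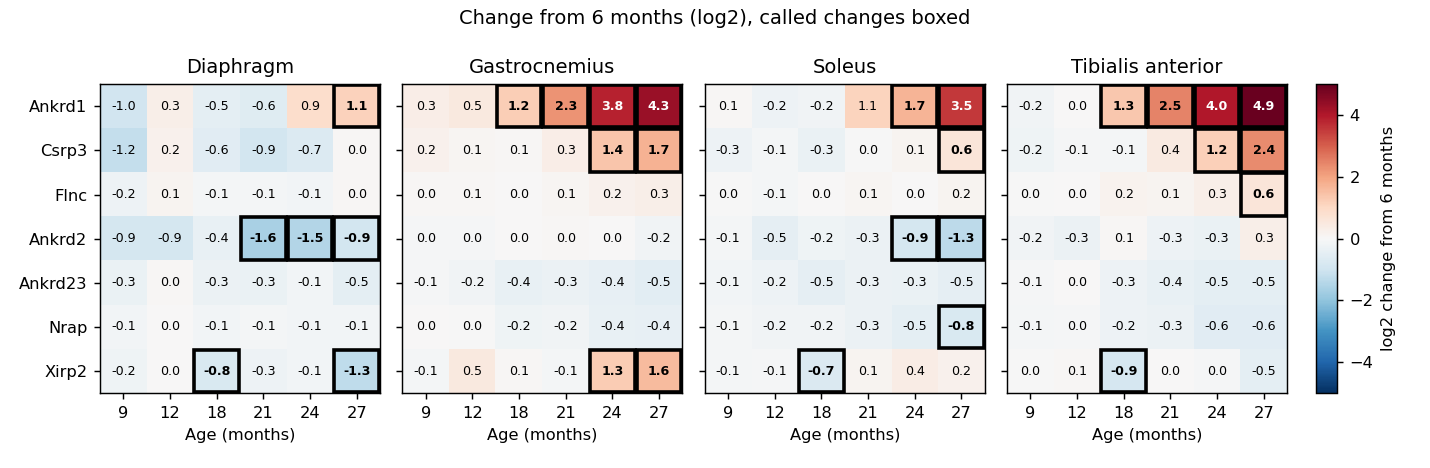
Log2 change from 6 months of the 7 genes (vertical axis) at 9 to 27 months (horizontal axis) in each muscle, on a colour scale from -5 to 5, with called changes boxed in bold. Ankrd1 was called from 18 months in the gastrocnemius and tibialis anterior, from 24 months in the soleus and at 27 months in the diaphragm, and no gene was called at 9 or 12 months.

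Ankrd1 was the member with the largest rise in every muscle at 27 months. In the tibialis anterior, its lowest, median and highest values were 11.2, 27.0 and 46.4 CPM at 6 months and 345, 770 and 1595 CPM at 27 months. The groups did not overlap, and all 12 old libraries lay above the highest young one (+4.94 ± 0.31, adjusted p = 6.1e-24). The medians in between were 21.6 CPM at 9 months, 22.5 at 12, 59.5 at 18, 120.6 at 21 and 385 at 24 months.

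Between neighbouring ages in the tibialis anterior, each step of Ankrd1 from 12 months on was called, with +1.33 ± 0.29 from 12 to 18, +1.14 ± 0.27 from 18 to 21, +1.52 ± 0.29 from 21 to 24 and +0.94 ± 0.32 from 24 to 27 months. Of all genes tested, 3.49%, 1.97%, 3.52% and 6.08% were called at these steps. Its trend was classed as late rising, with a logistic midpoint at 21.5 months.

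The gastrocnemius gave a like course of Ankrd1. Values ran from 10.5 through a median of 24.0 to 39.2 CPM at 6 months and from 286.5 through 506 to 875 CPM at 27 months. Again the groups did not overlap (+4.31 ± 0.28, adjusted p = 7.5e-22). The rise was +1.23 ± 0.26 at 18 months, +2.26 ± 0.28 at 21 and +3.84 ± 0.28 at 24 months, all called. Steps from 18 to 21 (+1.03 ± 0.26) and from 21 to 24 months (+1.59 ± 0.28) were called, when 0.253% and 6.72% of all genes were, and the step from 24 to 27 months was not.

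In the soleus, Ankrd1 was first called against 6 months at 24 months. It ranged from 6.67 to 28.4 CPM with a median of 13.2 at 6 months and from 18.4 to 280 CPM with a median of 185 at 27 months. All but 1 of the 12 old libraries lay above the highest young library, and the exception, replicate 9 at 18.4 CPM, also had the highest summed level of 8 slow fibre genes at that age (80400 CPM). The change was +3.53 ± 0.40 (adjusted p = 4.9e-12), and +3.80 without that library. The step from 18 to 21 months was called (+1.30 ± 0.44, adjusted p = 0.026), when 1.51% of all genes were. Against 6 months it was not called at 21 months (+1.11 ± 0.43, adjusted p = 0.071) and was at 24 months (+1.70 ± 0.42), with a further +1.82 ± 0.34 from 24 to 27 months, a step at which 4.52% of all genes were called.

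The diaphragm had the lowest Ankrd1 and the smallest rise. At 6 months 11 of the 12 libraries held 3.52 to 8.72 CPM, and replicate 0 held 198 CPM. This library was also the highest of its group in Csrp3 (129.9 CPM), Flnc (7662 CPM) and the sum of 5 adipocyte genes, whose median in the group was 145 CPM. At 27 months the values ran from 5.02 through a median of 12.0 to 89.7 CPM, with 4 libraries at 33.5, 61.8, 78.1 and 89.7 CPM above the rest. The groups overlapped (+1.14 ± 0.45, adjusted p = 0.030). The call was lost in the quasi-likelihood test of edgeR (+0.35, adjusted p = 0.59) and in DESeq2 (+0.38, adjusted p = 0.56). Without replicate 0 the limma change was +1.73 (adjusted p = 6.6e-04). It was also lost when any 1 of 7 other libraries was left out (replicates 0, 5, 6 and 8 of 27 months and 5, 8 and 10 of 6 months).

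Csrp3, muscle LIM protein, rose in the 3 hindlimb muscles and from 24 months in both fast ones. In the tibialis anterior it held 22.8, 39.3 and 70.3 CPM (lowest, median and highest) at 6 months and 71.3, 234 and 444 CPM at 27 months, with no overlap (+2.36 ± 0.24, adjusted p = 1.6e-14). In the gastrocnemius the same values were 71.0, 115.5 and 250 CPM against 204, 460.5 and 787 CPM, and 9 of 11 old libraries lay above the young range (+1.75 ± 0.22, adjusted p = 2.4e-10). Both muscles were already called at 24 months (+1.18 ± 0.24 and +1.40 ± 0.23) and neither at 21 months.

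The soleus rise of Csrp3 was smaller. Levels of 169 to 269 CPM with a median of 212 at 6 months stood against a median of 321 and a highest value of 654 CPM at 27 months, with the lowest in replicate 8, and 9 of 12 old libraries lay above the young range and 1 below it. The change of +0.61 ± 0.17 (adjusted p = 0.0019) was just over 1.5-fold, and leaving out single libraries moved it between +0.51 and +0.75, below the fold threshold without any 1 of 6 libraries (replicates 0, 1, 3 and 5 of 27 months and 0 and 5 of 6 months). In the diaphragm Csrp3 varied from 4.74 to 129.9 CPM at 6 months and from 2.59 to 71.6 CPM at 27 months, around medians of 10.5 and 11.7 CPM, and the change of +0.05 ± 0.49 had too wide an error to show a difference of the size seen in the soleus.

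Flnc, filamin C, was called at 27 months in the tibialis anterior and in no other group. It held 3117, 3370 and 3953 CPM at 6 months and 4603, 5092 and 6255 CPM at 27 months, so that all 12 old libraries lay above the young ones (+0.61 ± 0.06, adjusted p = 4.2e-14). The gastrocnemius moved the same way under the fold threshold (+0.29 ± 0.10, adjusted p = 0.011), with medians of 4263 and 5630 CPM and overlapping groups. Changes in the soleus (+0.15 ± 0.09) and the diaphragm (+0.05 ± 0.11) did not pass the test, with medians of 4360 and 4822 CPM in the soleus and 2658 and 3243 CPM in the diaphragm.

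**Figure D2:**
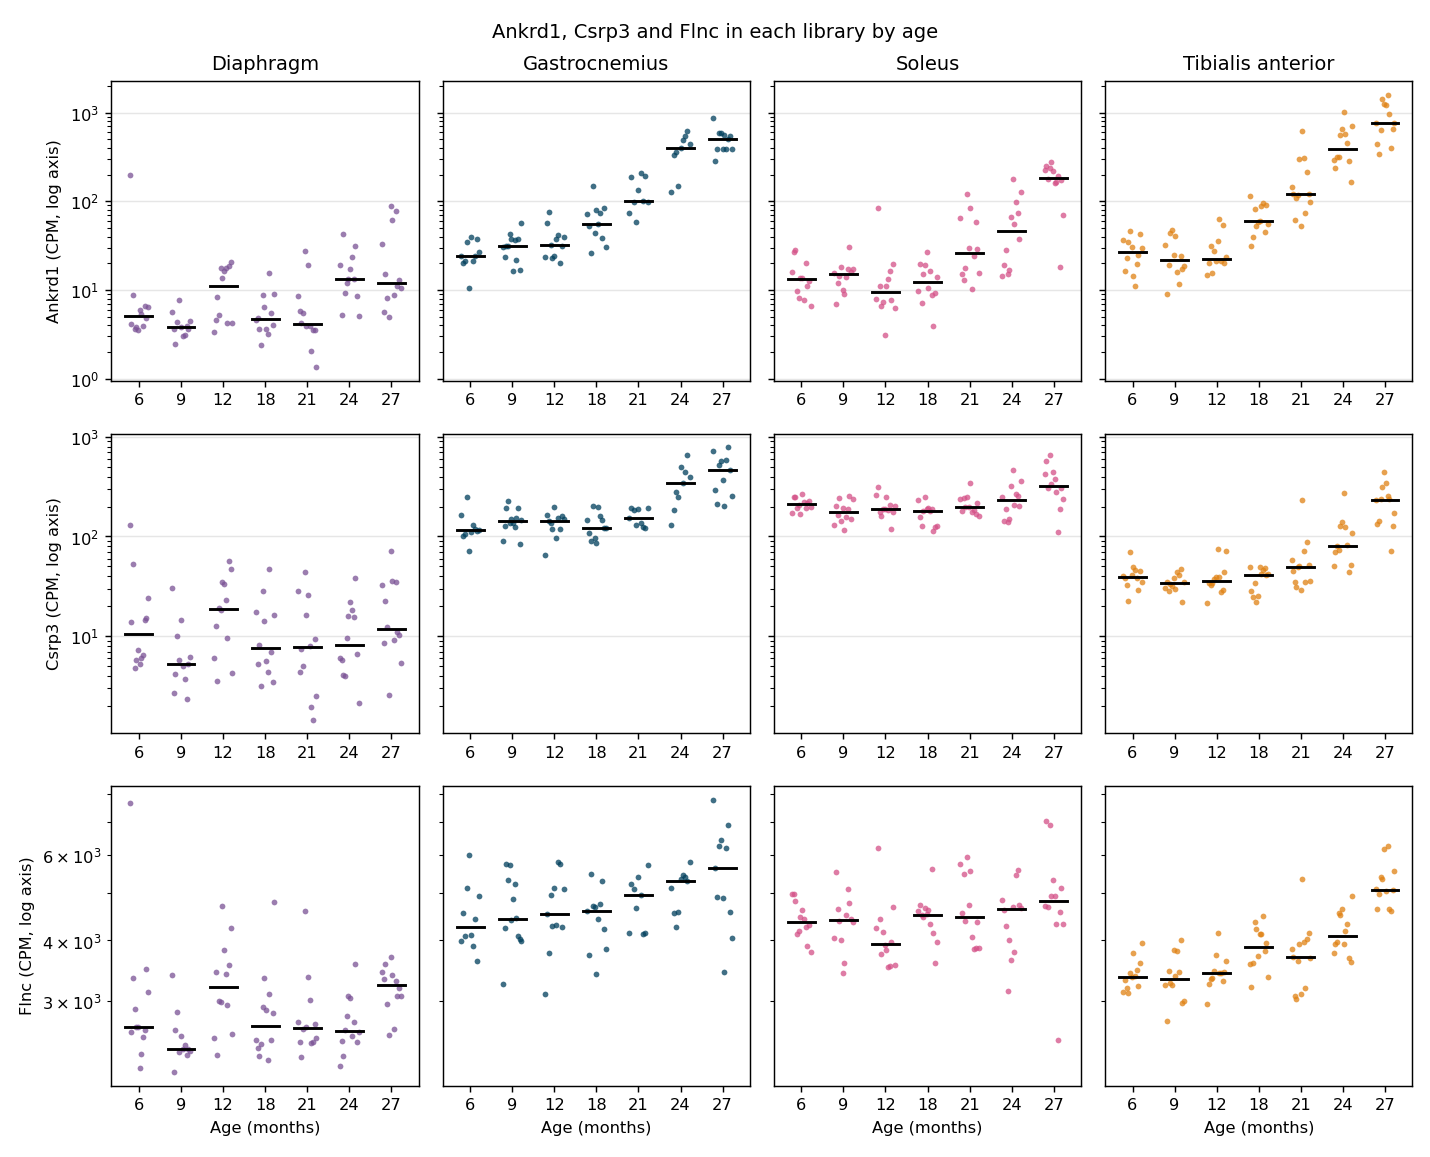
Ankrd1, Csrp3 and Flnc in each library (points, CPM on a log axis) by age in months in the 4 muscles, with black bars at group medians. The Ankrd1 median of the tibialis anterior climbs from 27.0 CPM at 6 months to 770 CPM at 27 months, and 1 diaphragm library of 6 months stands far above its group in all 3 genes.

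Ankrd2, the ankyrin repeat protein known from slow fibres, was lower in the old soleus and, without a trend over age, in the old diaphragm. In the soleus, where its level was highest, it held 327.5, 447 and 571 CPM at 6 months and 12.7, 214 and 329 CPM at 27 months, and 11 of 12 old libraries lay below the young range (-1.29 ± 0.23, adjusted p = 1.3e-06). The fall was already called at 24 months (-0.88 ± 0.23, adjusted p = 0.0019). The library at 12.7 CPM, replicate 8, also had the lowest slow fibre sum of its group (26254 CPM), and without it the change was -0.95 and stayed called.

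In the diaphragm Ankrd2 was scarce, at 3.14 to 11.4 CPM with a median of 7.53 at 6 months and 1.86 to 8.58 CPM with a median of 3.25 at 27 months. The groups overlapped, and 6 of 12 old libraries lay below the young range. It was called lower at 21 (-1.61 ± 0.40), 24 (-1.46 ± 0.36) and 27 months (-0.90 ± 0.32, adjusted p = 0.017). Changes of nearly the size at 27 months, uncalled, were already present at 9 (-0.88 ± 0.33, adjusted p = 0.28) and 12 months (-0.88 ± 0.36, adjusted p = 0.18). The medians at these ages were 4.275 and 3.29 CPM. At 18 months the change was -0.37 ± 0.29. Its trend class was no trend, also under total-count scaling, so the calls do not show a decline confined to old age. At 27 months the call was lost in edgeR (-0.84, adjusted p = 0.059) and DESeq2 (-0.84, adjusted p = 0.057).

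Neither fast muscle showed a called change of Ankrd2. The medians were 68.8 and 80.6 CPM at 6 and 27 months in the gastrocnemius (-0.16 ± 0.27) and 17.4 and 17.6 CPM in the tibialis anterior (+0.30 ± 0.22). Its spread widened in the gastrocnemius, from 47.4 to 116.5 CPM at 6 months to between 7.84 and 177 CPM at 27 months. The library at 7.84 CPM, replicate 6, had the lowest slow fibre sum of its group (3485 CPM), and without it the sign turned (+0.14). In the tibialis anterior the step from 24 to 27 months was called (+0.64 ± 0.23, adjusted p = 0.017). In the diaphragm the step from 18 to 21 months was called (-1.24 ± 0.40), when 0.54% of all genes were.

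With the scaling used here, Ankrd23 changed by nearly the same amount in each muscle, always downwards and always under 1.5-fold. At 27 months the change was -0.49 ± 0.10, -0.54 ± 0.07, -0.46 ± 0.07 and -0.48 ± 0.07 (diaphragm, gastrocnemius, soleus and tibialis anterior), with adjusted p from 1.1e-09 to 3.2e-05 and no call. These changes were less alike under total-count scaling, with the diaphragm minus the gastrocnemius, soleus and tibialis anterior at -0.20, -0.14 and -0.29. In the gastrocnemius the groups did not overlap, with 2468, 3024 and 3216 CPM at 6 months and 1740, 1964 and 2343 CPM at 27 months. In the tibialis anterior 11 of 12 old libraries lay below the young range, with 3647, 4392 and 4602 CPM against 2522, 2959 and 4121 CPM, and a linear fall was the trend class in all 4 muscles. In the diaphragm that class became no trend under total-count scaling and under BIC differences of 10. The same happened there without 1 series of running numbers in the sample labels that holds its 12-month libraries. In the soleus the class became an early fall under total-count scaling.

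Nrap, the scaffold of myofibril assembly, fell in the soleus. It held 8697, 9315 and 10839 CPM at 6 months and 2887, 5611 and 7290 CPM at 27 months, and every old library lay below every young one (-0.78 ± 0.08, adjusted p = 3.9e-14). Without replicate 8, the lowest, the change was -0.70 and stayed called. The tibialis anterior stopped just short of the fold threshold (-0.58 ± 0.05, adjusted p = 4.0e-17), with medians of 5806 and 3596 CPM and 11 of 12 old libraries below the young range. It was called there without any 1 of 7 libraries (replicates 0, 7 and 8 of 6 months and 2, 3, 4 and 9 of 27 months). In the gastrocnemius (-0.42 ± 0.06, adjusted p = 4.7e-09) all 11 old libraries lay below the young ones, and in the diaphragm the change of -0.13 ± 0.06 did not pass the test (adjusted p = 0.053).

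**Figure D3:**
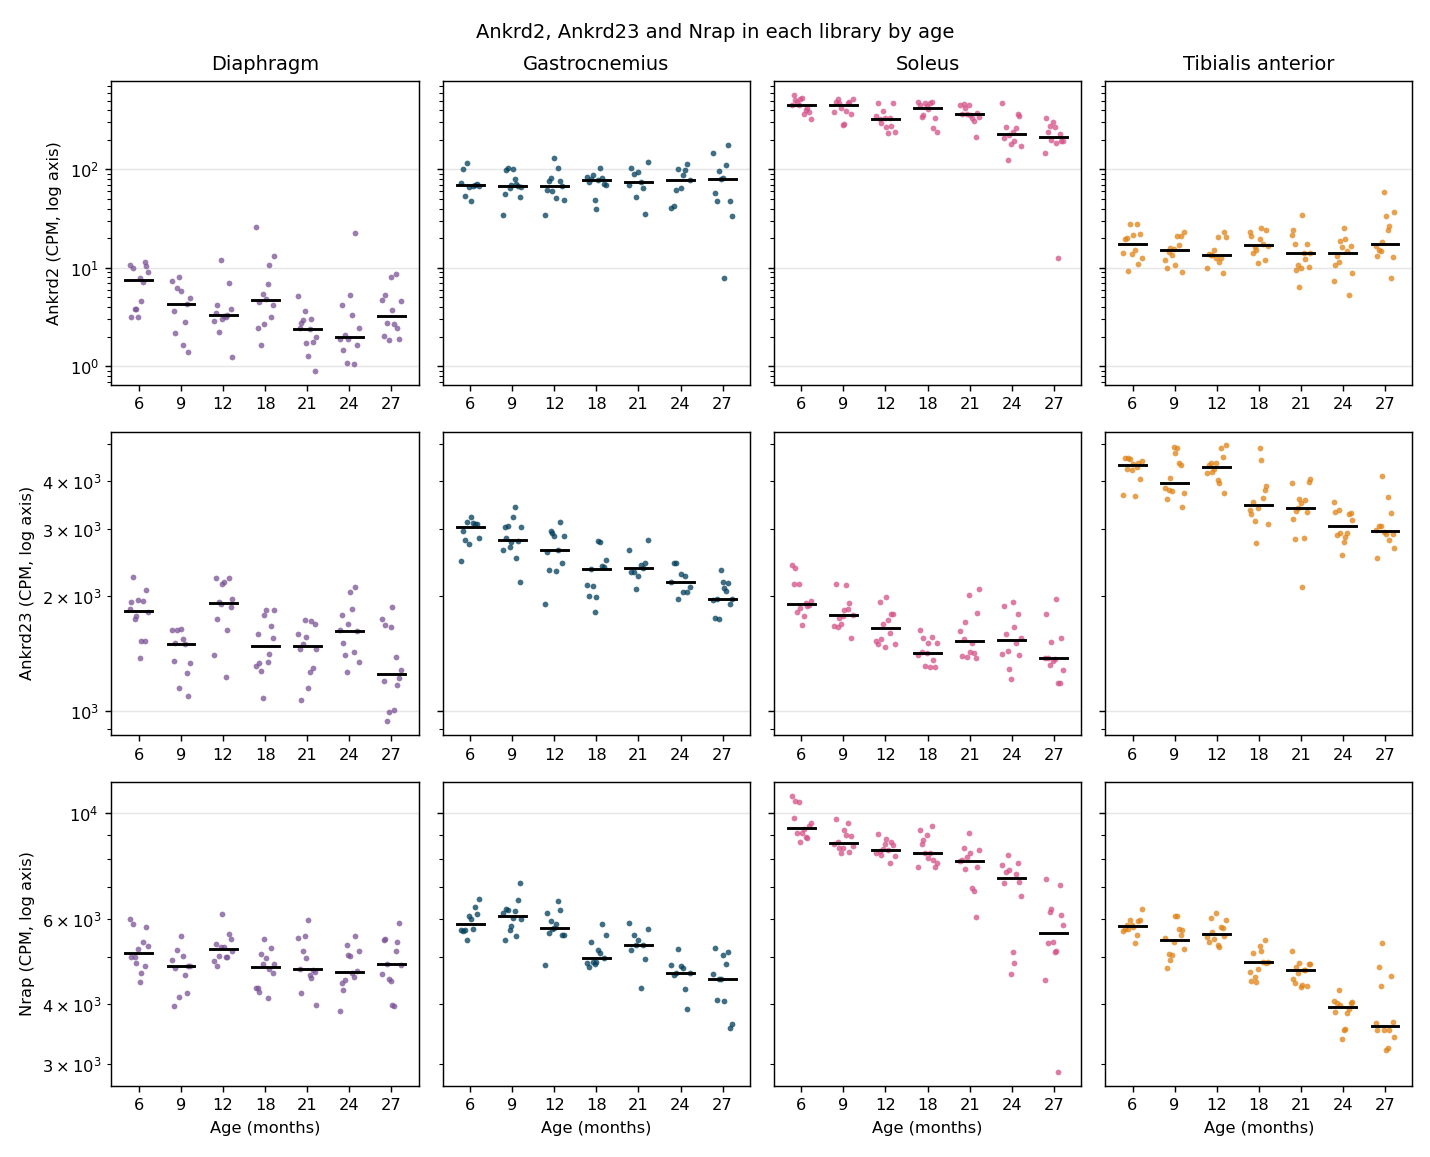
Ankrd2, Ankrd23 and Nrap in each library (points, CPM on a log axis) by age in months in the 4 muscles, with black bars at group medians. Ankrd2 and Nrap fall in the soleus, from medians of 447 to 214 CPM and from 9315 to 5611 CPM, and single old libraries lie far below their groups in Ankrd2 of the soleus and gastrocnemius.

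Xirp2 moved in opposite directions in different muscles, and its spread between libraries of 1 age was large. In the diaphragm it held 11076, 12316 and 15266 CPM at 6 months and 3455, 4494 and 12743 CPM at 27 months, and 11 of 12 old libraries lay below the young range (-1.28 ± 0.15, adjusted p = 1.0e-10). In the gastrocnemius it held 1414, 5035 and 11349 CPM at 6 months and 8368, 15954 and 22064 CPM at 27 months, with 9 of 11 old libraries above the young range (+1.59 ± 0.36, adjusted p = 1.4e-04). It was called higher at 24 months too (+1.26 ± 0.38). Neither the soleus (+0.21 ± 0.14, adjusted p = 0.21) nor the tibialis anterior (-0.47 ± 0.16, adjusted p = 0.0074) was called at 27 months. In the tibialis anterior the old libraries spread from 4773 to 28539 CPM, 7 of them below and 1 above the young range of 13780 to 17709 CPM, and without replicate 4 the change was called (-0.61).

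At 18 months Xirp2 was lower in the diaphragm (-0.75 ± 0.15, adjusted p = 2.3e-04), the soleus (-0.72 ± 0.14, adjusted p = 4.0e-05) and the tibialis anterior (-0.86 ± 0.16, adjusted p = 1.7e-05). The steps from 12 to 18 months were called in all 3 (-0.79 ± 0.15, -0.65 ± 0.14 and -0.92 ± 0.16), when 0.856%, 1.74% and 3.49% of all genes were. So was the diaphragm step from 24 to 27 months (-1.15 ± 0.15), when 4.39% were. By 21 months its medians were back at 10760, 12369 and 14869 CPM in the same muscles. The return from 18 to 21 months was called in the soleus (+0.84 ± 0.14) and the tibialis anterior (+0.88 ± 0.16), when 1.51% and 1.97% of all genes were.

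These shifts of Xirp2 went with a score shared by many genes across libraries. The score was the first principal component of 8550 other genes over the 33 gastrocnemius libraries of 6, 9 and 12 months after removal of age means, and was set up after the spread of Xirp2 had been seen. Cep290, Esf1 and Pcmtd1 led its high end and Adgrb2 and Rn28s, a ribosomal RNA line, its low end. Among libraries of 1 age, the correlation of Xirp2 with the score was 0.81 over 83 libraries of the diaphragm, 0.86 over 73 of the gastrocnemius, 0.61 over 84 of the soleus and 0.84 over 85 of the tibialis anterior. That of Ankrd1 lay between -0.10 and 0.35 and that of Csrp3 between -0.12 and 0.16. Flnc ran against the score in the gastrocnemius (-0.61), and was at -0.27 in the diaphragm, -0.18 in the soleus and -0.17 for the tibialis anterior. The libraries were scaled together and the gastrocnemius libraries also served to build the score, so these are descriptions.

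The mean score, in standard deviations within a muscle, was low at 18 months (-0.58, -1.18 and -1.22 for diaphragm, soleus and tibialis anterior) and at 27 months (-1.34, -0.92 and -1.14), and high in the gastrocnemius at 24 (0.77) and 27 months (0.48). With the score as a covariate, no Xirp2 change at 18 months was called (-0.41, -0.25 and -0.04). At 27 months the change was -0.64 in the diaphragm and 0.89 in the gastrocnemius, both still called, 0.60 in the soleus, now called, and 0.29 in the tibialis anterior, where the sign turned without a call. The gastrocnemius change at 24 months was no longer called (0.31). The score also ended the call at 27 months of Ankrd1 in the diaphragm (adjusted p = 0.079). The calls of Csrp3 in the soleus and Flnc in the tibialis anterior ended too, because their log2 changes, 0.52 and 0.55, fell under the fold threshold. What this score reflects was not tested.

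**Figure D4:**
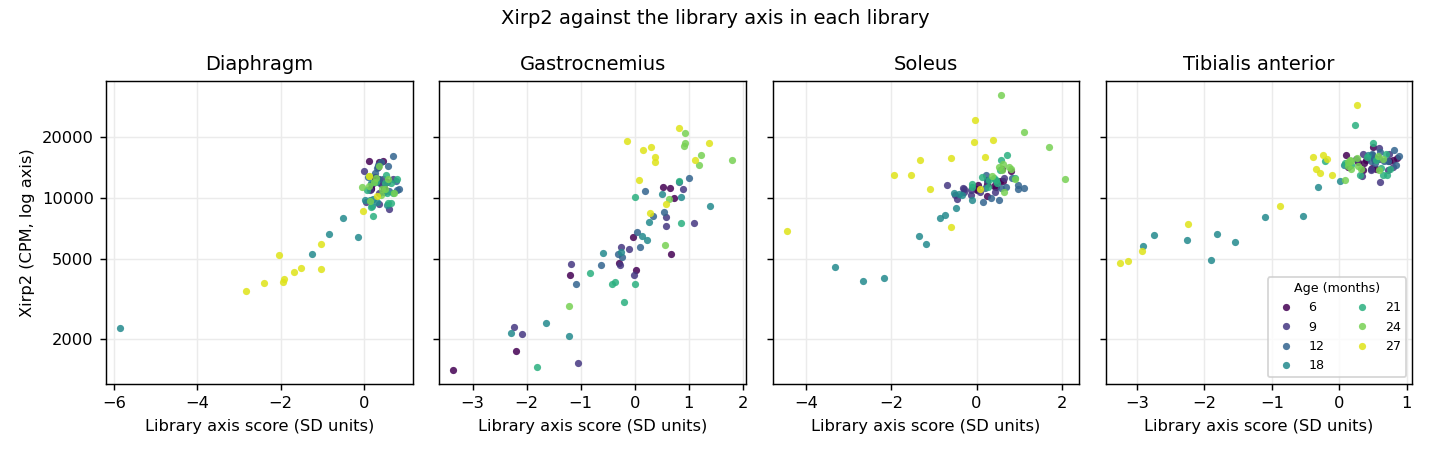
Xirp2 in each library (CPM on a log axis) against the library score built from other genes (standard deviations within the muscle), coloured by age in months. Low Xirp2 libraries of 18 and 27 months lie at low scores in the diaphragm, soleus and tibialis anterior, and old gastrocnemius libraries lie among the highest values.

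Differences between muscles were tested as the difference of 2 changes from 6 to 27 months. Libraries of different muscles at 1 age entered as independent, although same-numbered ones deviated together in part. Calls that a block on the replicate number changed are named with their values. The gastrocnemius libraries had their own series of running numbers in the sample labels. Differences between the gastrocnemius and other muscles, in changes and in levels, cannot be told apart from that series. For Ankrd1 the diaphragm rose less than the gastrocnemius (-3.13 ± 0.56), the soleus (-2.34 ± 0.55) and the tibialis anterior (-3.76 ± 0.54), and the soleus less than the tibialis anterior (-1.43 ± 0.49). The gastrocnemius and the tibialis anterior (-0.63 ± 0.49, adjusted p = 0.37) and the gastrocnemius and the soleus (+0.79 ± 0.50, adjusted p = 0.21) were not told apart. Csrp3 rose less in the diaphragm than in the gastrocnemius (-1.66 ± 0.45) or tibialis anterior (-2.28 ± 0.44). It rose less in the soleus than in the tibialis anterior (-1.77 ± 0.39), and more in the gastrocnemius than in the soleus (+1.15 ± 0.41). Ankrd23 and Flnc were not called in any pair. For Flnc the diaphragm minus the tibialis anterior gave -0.51 ± 0.13 (adjusted p = 5.8e-04), under the fold threshold, and for Ankrd23 the 6 differences lay between -0.07 and 0.10 with errors of 0.11 to 0.12. With the block the Xirp2 change in the soleus minus that in the tibialis anterior became called (0.68 ± 0.30 without it, 0.69 with it, adjusted p = 0.063 and 0.040). The library score with which Xirp2 moved was not a covariate in these tests, nor in those of levels. Neither was run with single libraries left out, such as the 6-month diaphragm library at 198 CPM of Ankrd1. Over the pairs, 3 of 7 genes were called for diaphragm and gastrocnemius, 3 for diaphragm and soleus, 4 for diaphragm and tibialis anterior, 3 for gastrocnemius and soleus, 1 for gastrocnemius and tibialis anterior and 3 for soleus and tibialis anterior, against 21.6%, 11.9%, 20.3%, 14.5%, 7.32% and 15.8% of all genes.

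The order of the muscles also differed from gene to gene. At 6 months Ankrd2 was highest in the soleus, then the gastrocnemius, tibialis anterior and diaphragm, with gastrocnemius minus soleus at -2.64 ± 0.23, gastrocnemius minus tibialis anterior at 2.07 ± 0.25 and diaphragm minus tibialis anterior at -1.34 ± 0.31, and each of these was called at 27 months too (-1.49, 1.62 and -2.50). Csrp3 had this order too at 6 months, with the same differences at -0.80 ± 0.29, 1.64 ± 0.29 and -1.49 ± 0.32. At 27 months its level in the gastrocnemius and the soleus did not differ beyond the spread (0.35 ± 0.29, adjusted p = 0.27), and the soleus stood 0.67 ± 0.28 above the tibialis anterior.

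Ankrd1 at 6 months was not told apart between the tibialis anterior and gastrocnemius (gastrocnemius minus tibialis anterior -0.06 ± 0.36, adjusted p = 0.91). It was higher in the gastrocnemius than in the soleus (0.85 ± 0.38, adjusted p = 0.037), a call lost with the replicate number as a block (0.81 ± 0.40, adjusted p = 0.058). By median it was lowest in the diaphragm, which was not told apart from the soleus (diaphragm minus soleus -0.82 ± 0.44, adjusted p = 0.094). That diaphragm group includes the library at 198 CPM, against a group median of 5.13 CPM and a soleus median of 13.2 CPM. The difference was not tested without this library. At 27 months the order of medians was the same, and diaphragm minus soleus was -3.16 ± 0.33. Gastrocnemius minus tibialis anterior was -0.69 ± 0.33 (adjusted p = 0.080), and with the block -0.75 ± 0.32 (adjusted p = 0.048). Nrap was highest in the soleus at 6 months, with gastrocnemius minus soleus at -0.68 ± 0.07, and in no pair did it pass both thresholds at 27 months. Xirp2 was lowest in the gastrocnemius at 6 months (diaphragm minus gastrocnemius 1.34 ± 0.22, gastrocnemius minus soleus -1.23 ± 0.22, gastrocnemius minus tibialis anterior -1.59 ± 0.22). At 27 months it was lowest in the diaphragm (minus gastrocnemius -1.48 ± 0.21, minus soleus -1.33 ± 0.21), also called against the tibialis anterior. In the order of pairs used above for the changes, 5, 3, 4, 5, 3 and 5 of the 7 genes were called at 6 months, against 37.3%, 23.9%, 35.1%, 45.4%, 17.3% and 42.9% of all genes. At 27 months 6, 5, 6, 2, 3 and 4 were, against 32.3%, 27.9%, 27.4%, 34%, 10.4% and 31.7%.

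**Figure D5:**
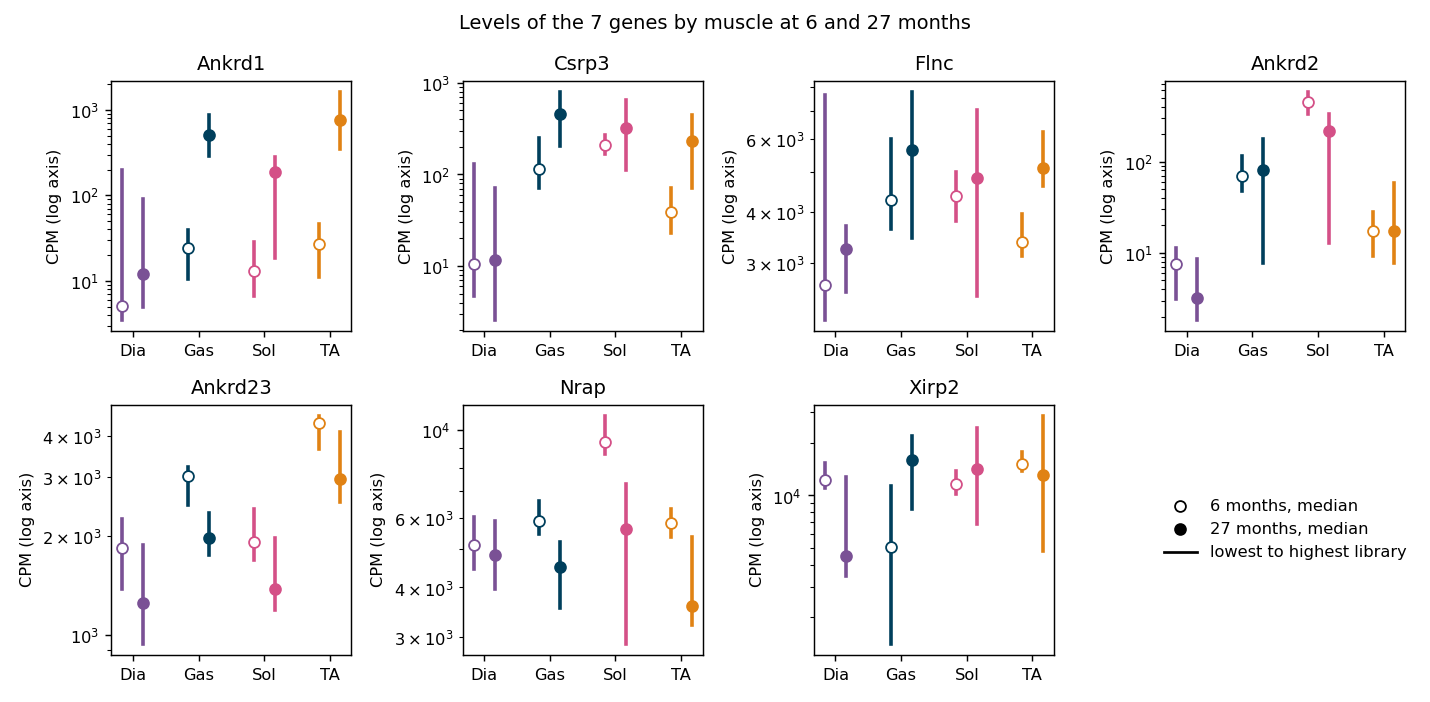
Medians (circles, open at 6 and filled at 27 months) and the range from the lowest to the highest library (lines) of the 7 genes in the diaphragm (Dia), gastrocnemius (Gas), soleus (Sol) and tibialis anterior (TA), in CPM on log axes. Ankrd2 and Nrap are highest in the soleus at 6 months, and Ankrd1 at 27 months is highest in the tibialis anterior and lowest in the diaphragm.

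Relations between the genes across libraries were tested within the oldest group. Of 84 relations tested (21 gene pairs in 4 muscles, log2 CPM), 11 passed an adjusted p under 0.05 by both Pearson's and Spearman's correlation, all of them positive, and 16 of the 84 Pearson values were negative. Pairs of other genes were not tested in this way, so the count is a description. Csrp3 and Flnc were related in the gastrocnemius (r = 0.85, permutation p = 0.0011, adjusted p = 0.011; rho = 0.86, permutation p = 0.0014, adjusted p = 0.019; n = 11) and r without the 2 libraries farthest from the Csrp3 median was 0.83. They were also related in the soleus (r = 0.92, permutation p = 8e-05, adjusted p = 0.0022; rho = 0.87, permutation p = 3.4e-04, adjusted p = 0.0095; n = 12), with r = 0.77 after the same removal. In the tibialis anterior the pair did not pass the correction (r = 0.61, permutation p = 0.036, adjusted p = 0.11; rho = 0.59, permutation p = 0.05, adjusted p = 0.155). The diaphragm passed by Pearson's correlation alone (r = 0.80, rho = 0.71, adjusted permutation p = 0.011 and 0.068).

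Ankrd1 and Csrp3 went together at 27 months in the diaphragm (r = 0.90, permutation p = 3e-05, adjusted p = 0.0013; rho = 0.89, permutation p = 1.9e-04, adjusted p = 0.0095; n = 12; r = 0.85 without the 2 farthest libraries). Some of these diaphragm libraries stood above the rest in Ankrd1, as given above, and removal of 2 does not take all of them out. The relation among the remaining diaphragm libraries alone was not tested. Ankrd1 and Csrp3 were also related in the tibialis anterior (r = 0.82, permutation p = 9.8e-04, adjusted p = 0.011; rho = 0.80, permutation p = 0.0028, adjusted p = 0.029; n = 12; r = 0.90 without the 2 farthest libraries). In the gastrocnemius (r = 0.52, permutation p = 0.104, adjusted p = 0.24; rho = 0.39, permutation p = 0.24, adjusted p = 0.46) and the soleus (r = 0.49, permutation p = 0.12, adjusted p = 0.26; rho = 0.66, permutation p = 0.022, adjusted p = 0.094) it did not pass. Ankrd2 and Flnc in the soleus (r = 0.88, permutation p = 6e-04, adjusted p = 0.0084; rho = 0.76, permutation p = 0.0060, adjusted p = 0.046; n = 12) fell to r = 0.56 without 2 libraries, 1 of them replicate 8. In the gastrocnemius this pair passed by both correlations (r = 0.91, rho = 0.86, adjusted permutation p = 0.0013 and 0.018), with r = 0.85 without 2 libraries. Ankrd2 and Csrp3 passed there too (r = 0.84, rho = 0.93, adjusted permutation p = 0.00315 and 0.0095), with r = 0.84 after that removal. They also passed in the tibialis anterior (r = 0.79, rho = 0.76), with r = 0.51 after it. In the diaphragm Ankrd1 with Ankrd2 (r = 0.82), Ankrd1 with Ankrd23 (r = 0.77) and Ankrd23 with Flnc (r = 0.84) passed by both correlations. Without 2 libraries r was 0.60, 0.86 and 0.88. The limit given for Ankrd1 in the diaphragm holds for its pairs here too.

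Over the 28 group means, after removal of each muscle's mean, the genes most like Ankrd1 were PVR (r = 0.98) and Lgmn, a lysosomal protease (r = 0.98). Those most like Csrp3 were Rras, a small GTPase (r = 0.92), and Lmln (r = 0.92), and the closest to Flnc was Csrp3 itself (r = 0.92), followed by Scap (r = 0.91). Nrap was closest to Yipf7 and Dffa (r = 0.96 each), Xirp2 to Smc2 (r = 0.97) and Ift74 (r = 0.96), and Ankrd23 to Sh3glb1 and Zfp639 (r = 0.88 each). Ankrd2 had no close match, with Zfp385a and Ttc38 at 0.73. The means share libraries' scaling and collection days, so these values are descriptions.

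Among 28 listed genes of the Z-disc and I-band, the home of these proteins, 1 rose and 1 fell in the diaphragm at 27 months, 4 rose and 4 fell in the gastrocnemius, 2 and 4 in the soleus, and 5 and 10 in the tibialis anterior. Their median changes were 0.05, -0.14, -0.18 and -0.16. Over all genes tested, 7.52%, 22.8%, 15% and 27.6% were called in these muscles at that age. Actn3, the fast fibre alpha-actinin, fell in the gastrocnemius (-1.39 ± 0.14) and tibialis anterior (-1.50 ± 0.17) and rose in the soleus (+3.55 ± 0.55), from a median of 6.65 to 90.2 CPM. Fhl2, a LIM protein that binds titin, rose in the diaphragm, gastrocnemius and tibialis anterior (+0.61 to +1.76). It was scarce there, with medians at 6 and 27 months of 3.14 and 4.82, 1.38 and 2.98, and 0.32 and 1.08 CPM. In the soleus, at 16.9 and 19.0 CPM, Fhl2 was not called. Nexn, an actin-binding Z-disc protein, fell in the diaphragm, soleus and tibialis anterior (-0.90 to -1.19). Tcap, the cap of titin at the Z-disc, was not called in any muscle, and Ttn itself was not analysed here.

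Of 12 genes of filamin turnover and small heat shock proteins, 5 rose in the tibialis anterior, 3 rose in the gastrocnemius and 1 rose in the soleus, while 1 fell in the diaphragm and 2 in the soleus. The shares of all genes called were 27.6% (tibialis anterior), 22.8% (gastrocnemius), 15% (soleus) and 7.52% (diaphragm). Hspb8, the partner of Bag3 in the clearance of filamin, rose in the gastrocnemius (+1.12 ± 0.10), soleus (+0.59 ± 0.09) and tibialis anterior (+1.39 ± 0.09). Bag3 itself was called in the tibialis anterior alone (+0.70 ± 0.05), with 205 to 229 CPM at 6 and 293 to 379 CPM at 27 months, and whether its change differed between muscles was not tested. Hspb7 rose in the gastrocnemius (+0.97 ± 0.14) and tibialis anterior (+1.73 ± 0.14), and Hsp90aa1 fell in the diaphragm (-0.65 ± 0.12) and rose in the gastrocnemius (+0.85 ± 0.19).

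Of 19 listed genes of the YAP, TEAD and SRF pathways, which are known to act on Ankrd1, 1 rose in the diaphragm, 2 rose and 1 fell in the gastrocnemius, 1 and 2 in the soleus, and 3 and 2 in the tibialis anterior. These counts stood beside 7.52%, 22.8%, 15% and 27.6% of all genes in the same order of muscles. Actc1, cardiac actin, rose in all 4 muscles (+1.24 to +3.17), and Ctgf, a target of YAP, rose in the gastrocnemius (+1.12 ± 0.19) and tibialis anterior (+1.02 ± 0.14). Vgll2, a muscle cofactor of TEAD, fell in the 3 hindlimb muscles (-0.62 to -0.94). Tead1 was called lower in the tibialis anterior (-1.08 ± 0.07). It was also lower, under the fold threshold, in the diaphragm (-0.35 ± 0.05), gastrocnemius (-0.56 ± 0.07) and soleus (-0.39 ± 0.05), each with an adjusted p under 0.05. Srf was not called in any muscle. Its changes in the gastrocnemius (-0.51 ± 0.07), soleus (-0.23 ± 0.05) and tibialis anterior (-0.495 ± 0.07) passed the adjusted p alone, and that in the diaphragm (0.015 ± 0.055) did not.

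The list of myogenic regulation and denervation genes had the most calls. It was drawn up with earlier results of these data known. The study had already reported Chrnd, Musk, Ncam1 and Hdac4 as raised in old rat muscles, so the number of calls is a description. Of 14 genes, 10, 13, 13 and 14 rose (diaphragm, gastrocnemius, soleus and tibialis anterior), none fell, and the median changes were 1.03, 3.02, 2.24 and 3.78. Among all genes tested, 3.27%, 15.1%, 9.21% and 17.2% were called higher. Chrna1, a subunit of the acetylcholine receptor, rose from a median of 13.7 to 614 CPM in the tibialis anterior and from 20.3 to 48.6 CPM in the diaphragm. Runx1, a factor known to rise on denervation, changed by +1.77 ± 0.26, +3.70 ± 0.23, +2.84 ± 0.26 and +5.10 ± 0.28 in that order of muscles. Myog, the myogenic factor that activates receptor genes, rose by 1.06 ± 0.20, 2.56 ± 0.18, 0.79 ± 0.11 and 3.76 ± 0.23, and Chrng, the fetal receptor subunit, was also called in all 4 muscles.

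Markers of other cells and of fibre types also moved at 27 months, when 7.52%, 22.8%, 15% and 27.6% of all genes were called (diaphragm, gastrocnemius, soleus and tibialis anterior). All 8 macrophage genes rose in the gastrocnemius and tibialis anterior, 2 in the soleus and none in the diaphragm, and their summed level went from 47.0 to 73.9 CPM at 6 months to between 104 and 221 CPM at 27 months in the tibialis anterior. In the adipocyte list, 4 of 5 genes rose in each hindlimb muscle and none in the diaphragm. In the soleus 8 of 9 fast fibre genes rose and 1 of 8 slow fibre genes fell, and the slow fibre sum went from 62451 to 78951 CPM at 6 months to between 26254 and 80400 CPM at 27 months. The sum of the fast fibre list went from 196606 to 223479 CPM to between 63998 and 189588 CPM in the tibialis anterior and from 169183 to 208187 CPM to between 69762 and 150892 CPM in the gastrocnemius. Of tendon genes 3 rose and 1 fell in the tibialis anterior, 1 and 2 in the gastrocnemius, 1 and 1 in the soleus, and 1 fell in the diaphragm. The part of these cell types and fibre shares in the changes of the 7 genes was not tested.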

How the data were processed

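RNA was sequenced from 325 libraries of 4 rat muscles at 7 ages. The authors deposited raw read counts per gene for each library, with no normalization, obtained from strand-specific, ribosome-depleted libraries with the ArrayStudio pipeline (its version is not given in the sources used here), against an earlier rat assembly and a gene model based on RefSeq. The files held 17870 gene lines. Lines of 1 symbol were summed, and each of the 7 genes had a single line.

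Groups were read from the sample labels. Genes were kept by filterByExpr (minimum count 10, minimum total 15), scaled by TMM in edgeR 4.0.16 and tested, two-sided, with limma-voom 3.58.1 in R 4.3.3, by muscle with all ages for changes and in 1 fit of all 28 groups for differences between muscles. Printed CPM use TMM factors over all libraries. Trends compared null, linear and logistic models of log2 CPM by BIC differences of 6 and 2. Correlations used 100000 permutations, two-sided. DESeq2 1.42.0, edgeR and other settings were run as alternatives. Scripts were tested on simulated data. Counts were deep enough (at least 26 per library for each gene) that spread between libraries, not counting error, set the precision. No 2 libraries held identical values.

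The genes and lists were chosen with earlier results of these data known. The text names the 7 genes, the 3 genes of each pathway list with the largest summed called change, Tcap, Bag3, Myog, Runx1, Tead1 and Srf for their roles, and the 2 genes most like each member among those over a mean log2 CPM of 0. Listed were 28 of 33 Z-disc genes, 12 of 12 filamin and chaperone genes, 19 of 28 pathway genes of YAP and SRF and 14 of 14 denervation genes.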

Additional observations from a re-analysis of the deposited data

Results flagged for a closer look

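The change from 6 to 27 months differed between muscles, by the interaction test of limma-voom across all genes with Benjamini-Hochberg adjustment, for 17 combinations of gene and muscle pair. Values are the log2 change in the first muscle minus that in the second. For Ankrd1 they were -3.13 for diaphragm minus gastrocnemius, -2.34 for diaphragm minus soleus, -3.76 for diaphragm minus tibialis anterior and -1.43 for soleus minus tibialis anterior. For Csrp3 they were -1.66 for diaphragm minus gastrocnemius, -2.28 for diaphragm minus tibialis anterior, 1.15 for gastrocnemius minus soleus and -1.77 for soleus minus tibialis anterior. Ankrd2 gave -1.16 for diaphragm minus tibialis anterior, 1.15 for gastrocnemius minus soleus and -1.61 for soleus minus tibialis anterior. Xirp2 gave -2.82 for diaphragm minus gastrocnemius, -1.44 for diaphragm minus soleus, -0.76 for diaphragm minus tibialis anterior, 1.39 for gastrocnemius minus soleus and 2.07 for gastrocnemius minus tibialis anterior. These Xirp2 differences were not tested with the library score as a covariate, which moved its change within each muscle. For Nrap, diaphragm minus soleus gave 0.71. The comparisons share the libraries of each muscle at both ages. Those with the gastrocnemius cannot be told apart from its own series of running numbers.

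Among the 21 combinations of gene and gastrocnemius group small enough to be checked for a library far from the rest (9 or 10 libraries), 1 was found: Ankrd1 in replicate 4 at 6 months, the lowest of its group at 10.5 CPM, with a gap to its neighbour of 0.498 of the range of log2 CPM. Chance alone would mark about 1 in 20.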

How the results depend on the processing

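The quasi-likelihood test of edgeR called 1, 2, 2, 0 and 1 of the 7 genes in the diaphragm at 9, 18, 21, 24 and 27 months (limma: 0, 1, 1, 1 and 3), 1 in the soleus at 21 months (0) and 2 in the tibialis anterior at 21 months (1), and DESeq2 called 1 in the diaphragm at 27 months. On 6 and 27 months alone edgeR called 3 level differences at 6 months between gastrocnemius and soleus (5). Bonferroni adjustment left 0, 0, 0 and 1 in the diaphragm at 18, 21, 24 and 27 months, 0 in the gastrocnemius at 18, 0 in the soleus at 24 and 1 in the tibialis anterior at 18 months, 1, 2 and 4 calls between neighbouring ages in these hindlimb muscles (4, 4 and 9), 2, 0 and 1 differing changes for diaphragm and tibialis anterior, gastrocnemius and soleus, and soleus and tibialis anterior (4, 3 and 3), and 1 and 3 level differences at 6 months for the first and second of these pairs (4 and 5). A 2-fold threshold left 2 in the soleus at 27 months, a fit of 6 and 27 months alone 2 differing changes for diaphragm and tibialis anterior, BIC differences of 10 left 1 of 2 called diaphragm genes with a trend, and the library score as covariate left 0, 0 and 1 at 18 months in the diaphragm, soleus and tibialis anterior. Leaving out single libraries gave 3 to 5 calls in the tibialis anterior at 27 months, the 5 without replicate 4 of 27 months.

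Signs turned for uncalled values only. Csrp3 in the diaphragm at 27 months (+0.05) was -0.20 in edgeR, -0.19 in DESeq2, -0.18 with the score and -0.21 to 0.43 with single libraries left out, the last without replicate 0 of 6 months. Flnc there (+0.05) was -0.0363, -0.028 and -0.10 by the first 3. Ankrd2 in the gastrocnemius (-0.16) was 0.15 in edgeR, 0.13 in DESeq2, 0.13 with total-count scaling, 0.11 with quality weights and -0.30 to 0.14 with single libraries left out. Xirp2 in the tibialis anterior was 0.29 with the score. Total-count scaling, under which the all-gene median at 27 months was 0.043, 0.32, 0.16 and 0.34 (diaphragm, gastrocnemius, soleus and tibialis anterior), turned the Ankrd23 difference in change to -0.20, -0.14 and -0.29 for the diaphragm against gastrocnemius, soleus and tibialis anterior, 0.052 for gastrocnemius against soleus and -0.15 for soleus against tibialis anterior. It turned level differences at 6 months to 0.23 (Nrap, diaphragm and gastrocnemius), 0.21, 0.28 and 0.26 (Xirp2, Nrap and Flnc, diaphragm and tibialis anterior), -0.39 (Flnc, gastrocnemius and soleus) and 0.057 (Xirp2, soleus and tibialis anterior), and at 27 months to -0.11 and -0.10 (Xirp2 and Flnc, gastrocnemius and soleus) and 0.13 (Flnc, soleus and tibialis anterior). RLE size factors gave -0.000636 for Ankrd23, diaphragm against soleus, and edgeR 0.57 for the Ankrd1 level at 6 months, diaphragm against soleus. The causes were not tested.

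Replicate numbers paired libraries of different muscles in part. Of 468 same-numbered pairs across 2 muscles at 1 age, 260 had deviations correlated over 0.1 and 166 correlated best with their own number. All 12 pairs did so over 0.1 for diaphragm and tibialis anterior at 12 and 24 months and for soleus and tibialis anterior at 24 months, and in no other combination of muscles and age did every pair. Within 1 muscle, 6 and 27 months are different animals, and 11 of 46 pairs were over 0.1. With the replicate block, Ankrd1 between gastrocnemius and soleus at 6 months lost its call (0.81), and Flnc between diaphragm and gastrocnemius at 6 months (-0.59), Ankrd1 between gastrocnemius and tibialis anterior at 27 months (-0.75) and the Xirp2 difference in change between soleus and tibialis anterior (0.69) gained one. Depth did not limit these genes, the lowest count being 26.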
